A study of Nematostella vectensis with 30 samples.

Results

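The subject is the miRNA cargo of NveAGO2 in the sea anemone Nematostella vectensis at 2 stages, the sessile primary polyp and the swimming early planula larva. AGO2 was immunoprecipitated (IP) with an antibody from whole animals and the bound small RNAs were sequenced, giving 2 primary polyp libraries and 2 early planula libraries out of 30 libraries in the series. Every arm of the miRNA count table is a member, 255 arms in all, chosen with no measured value; 3 of them had the counts of another arm in every library and match it over 20 or 21 bases, which left 252 distinct arms. Beside these stand 2 AGO1 IPs and 2 IPs with rabbit IgG, the control antibody, at each stage. Adult male IPs entered the filter on counts and the estimate of the spread but no stage comparison, and 12 knockdown libraries were not used here. The labels name no treatment or allele for any IP sample, each IP was made from many animals together, and the study describes the replicates as distinct biological samples. Since whole animals were taken, fewer cells that hold a miRNA and less of it per cell cannot be told apart.

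Argonaute proteins hold one strand of a miRNA duplex, the guide, and use it to find target transcripts, while the other strand, the star, is usually discarded. Pairing to a target starts at the seed, bases 2 to 8 of the guide, although cnidarian miRNAs are known to pair with their targets over nearly the whole length and to direct cleavage. Sea anemones and corals carry a pair of Argonautes, AGO1 and AGO2, and both bind miRNAs.

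The arms on which the stage comparison turned most are printed first, 5′ to 3′ as the deposited table gives them, with the seed in capitals. These 7 were higher in primary polyps under every scaling of the libraries and without any single AGO2 library:
nve-miR-2023-3p: aAAGAAGUacaagugguaggg
nve-miR-2023-5p: cUGCCACCuguauuucuauca
nve-miR-2025-3p: uUUUUUAGcccgcggaaguugu
nve-miR-2025-5p: aGCUUUCGauggcuagaaaauc
nve-miR-2026-5p: uUUCAAAUgucuacugaugga
nve-miR-2050-3p: aUUUGAUUgcugugaucugguuu
n-nve-miR-42-b guide: uCUGUUUUucacgcuagcguca

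The prefix n- marks a miRNA that the study newly annotated. Next come the most abundant guides of both stages together with the 3p guides of the miR-2024 family, in which nve-miR-2024e-3p and nve-miR-2024f-3p have one seed and nve-miR-2024a-3p another:
nve-miR-2024e-3p: uUGCACAUuaccaauauucuga
nve-miR-2024f-3p: uUGCACAUcaccaauguucuga
nve-miR-2024a-3p: uUACACAGuaccgauauuguga
nve-miR-9414-5p: aACUUGAUcuucaaugaacu
nve-miR-2028-5p: uAAUGUUCcugcuuguuccua

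The third set begins with arms of the miRNAs whose balance of guide and star differed between the stages with the smallest p. Guides lower in primary polyps follow, of which n-nve-miR-51 and nve-miR-9457 share their seed:
nve-miR-2022-3p: uUUGCUAGuugcuuuugucccgc
nve-miR-2022-5p: gGGAUAAAucaacugucaagug
nve-miR-2036-3p: uAUAUUGUacgacucucaucgua
nve-miR-2036-5p: cGGUGAGAacguacaguaagca
nve-miR-2043a-5p: uAUAUCGCcuuuugagguuauu
nve-miR-2043a-3p: uACCCUCAaaagacgguauuag
nve-miR-2024e-5p: aGAGUAUUggcgcugggcaaaa
n-nve-miR-63 guide: uUGCCACUaaauagagagaacgu
n-nve-miR-51 guide: cACACAUUauacuaagacuca
nve-miR-9457: uACACAUUcuaagaaaagugcu

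Levels are CPM, the share of a library's summed distinct-arm counts scaled as is usual for CPM, so a level is a share of the miRNA cargo and not an amount per animal. These sums were 3229133 and 7827194 in primary polyp AGO2 libraries and 552669 and 531393 in early planula AGO2 libraries, so that 1 count weighed 0.310 and 0.128 CPM in polyps and 1.81 and 1.88 CPM in planulae. The IgG libraries were shallow, at 66334 and 62032 counts in polyps and 11119 and 26932 counts in planulae. Over the 196 tested arms, the log2(CPM + 1) values of the AGO2 replicates correlated at 0.988 in polyps and 0.964 in planulae (Pearson's r, across arms, which are not independent), and libraries of different stages at 0.833 to 0.855. The first polyp IgG library lay close to the polyp AGO2 libraries, at 0.910 and 0.921.

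A few guides filled the AGO2 cargo at both stages, and its upper ranks were largely kept. nve-miR-2024e-3p took 48.4% and 48.9% of the miRNA counts in polyp AGO2 libraries, against 44.2% and 29.0% in planula AGO2 libraries. In second place by mean, nve-miR-9414-5p held 21.8% and 13.2% in polyps against 26.8% and 32.0% in planulae, where it led the second library. Next in both stage means was nve-miR-2028-5p, with 7.39% and 10.2% in polyps against 11.8% and 17.8% in planulae. The planula replicates thus differed from each other in the leading guide, while both polyp replicates had the same one. The other IPs held the leading guides too. nve-miR-2024e-3p took 48.5% and 16.7% in polyp IgG and 21.2% and 7.54% in planula IgG, and led the first IgG library of each stage. In AGO1 it took 2.06% and 1.16% in polyps and 13.2% and 17.99% in planulae. nve-miR-9414-5p held 10.8% and 3.55% in polyp IgG and 18.3% and 7.52% in planula IgG. Whether the AGO2 shares exceed those in IgG was not tested.

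The 6 most abundant guides of each stage overlapped in 4, and the 8 guides of the union held 92.2% and 90.2% of the polyp counts against 91.0% and 89.6% of the planula counts. Exact 95% binomial intervals of these shares spanned at most 0.262 percentage points and cover counting error only, since reads without molecular identifiers are not independent molecules. The 5 leading arms of each library held 86.3% and 83.3% in polyps against 89.9% and 88.0% in planulae, and 14 of the 20 most abundant arms were shared by the stages. With 2 libraries a stage, an exact permutation test cannot go below p = 0.333, and none was run on these shares.

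**Figure D1:**
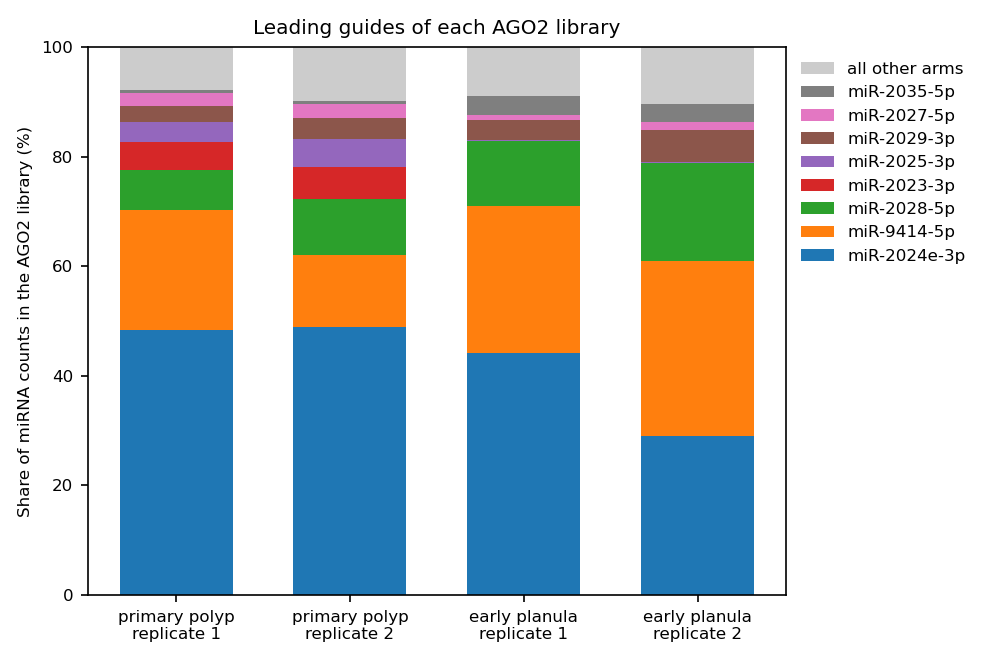
Share of the miRNA counts (%) held by 8 leading guides in each of 4 AGO2 libraries, stacked, with all other arms in grey. nve-miR-2024e-3p, nve-miR-9414-5p and nve-miR-2028-5p fill most of every bar, and nve-miR-2023-3p and nve-miR-2025-3p hold a visible band in the polyp libraries and almost none in the planula libraries; names are given without nve-.

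The 5 most abundant guides that did not pass the test are given here with their errors. The log2 change, primary polyp over early planula, was 0.41 (SE 0.61) for nve-miR-2024e-3p, -0.75 (SE 0.70) for nve-miR-9414-5p and -0.75 (SE 0.61) for nve-miR-2028-5p. It was -0.51 (SE 0.61) for nve-miR-2029-3p and 1.0 (SE 0.62) for nve-miR-2027-5p, with edgeR adjusted p from 0.21 to 0.61 over the 5. Guides of known miRNAs are named here as in the study's list of AGO preference, and the other arm is called the star. For nve-miR-2029 and 6 other miRNAs the study's list of mature sequences gives that other arm instead, so its lists differ.

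To ask which arms differed between the stages, edgeR's quasi-likelihood test was run with Benjamini-Hochberg adjustment. It covered 196 arms (134 guides, 62 stars) that reached 10 counts in 2 or more of the 18 IP libraries. Among them 4 arms had no count in the 4 AGO2 libraries. Of the 196, 14 arms were higher in primary polyps (7.14% of those tested) and 54 were lower (27.6%) at an adjusted p under 0.05, 34.7% in all. Of the 56 arms left untested, 54 were stars; 25 had no count in the 4 AGO2 libraries and the other 31 had at most 68 counts together. In 43 arms (21.9%) both polyp libraries were above both planula libraries, and in 101 arms (51.5%) both were below. The numbers rest on all 4 libraries: 28 arms passed without the first polyp replicate, 32 without the second, 41 without the first planula replicate and 40 without the second.

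How many arms were called lower depended on what the libraries were scaled to, whereas the calls of arms higher in polyps were kept. A scaling shifts all arms alike, so that calls were lost or added, and 0 of the 68 called arms were called in the other direction by edgeR under any of the scalings. Scaled to the sum of miRNA counts, the median log2 change of all arms was -1.04, scaled to DESeq2 size factors -0.28, with TMM factors 0.06 and per genome-mapped read 1.81. Calls higher against lower were 14 against 54 with the sum, 14 against 34 with the sum less nve-miR-2024e-3p, 23 against 31 with DESeq2 size factors, 32 against 21 with TMM and 74 against 3 per genome-mapped read. All 14 arms called higher were called higher under each of these 5 scalings (7.14% of those tested), while 3 of the 54 called lower were lower under each (1.53%). Sizes are therefore best read against the median change of -1.04, and the word lower below refers to a share of the miRNA cargo. By DESeq2's Wald test on the same scale, 11 of the 14 and 38 of the 54 passed.

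**Figure D2:**
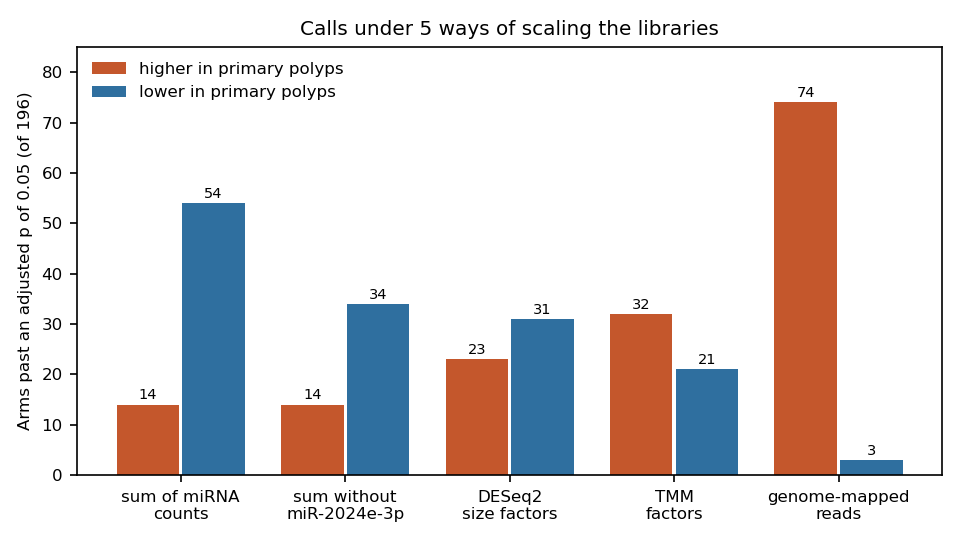
Number of arms past an adjusted p of 0.05, of 196 tested, higher (left bar of each pair) or lower (right bar) in primary polyps than in early planulae, under 5 ways of scaling the libraries. Calls of lower arms drop to 3 per genome-mapped read, where 74 arms are higher.

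**Figure D3:**
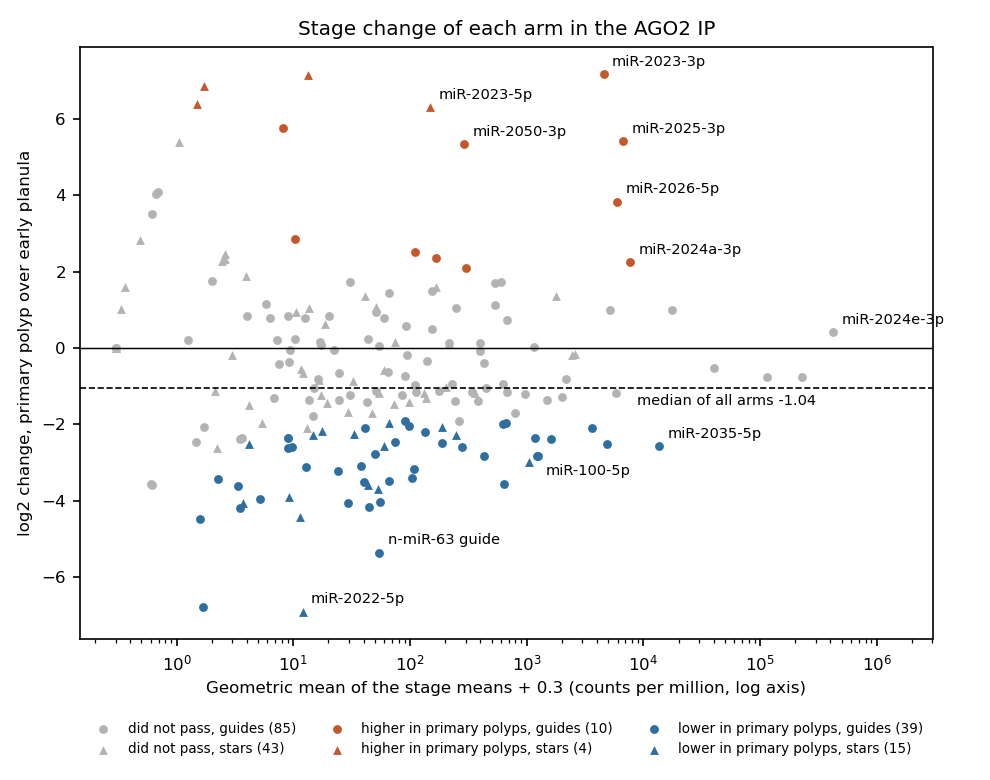
The log2 change of each tested arm (primary polyp over early planula) against the geometric mean of its stage means plus 0.3 CPM, on a log axis; circles are guides, triangles stars, and colours mark the call (n- marks a newly annotated miRNA). Arms higher in polyps lie up to 7.17 on the log2 scale, and most called arms lie below the dashed median of -1.04.

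Among the arms called higher, nve-miR-2023-3p had the largest log2 change; it is the guide of a miRNA at rank 4 in polyp AGO2. It stood at 50191 and 58992 CPM in polyp AGO2 libraries, against 483 and 275 CPM in planula AGO2 libraries. The 2 groups lay far apart, with a mean 144-fold higher in polyps and a log2 change of 7.17 (SE 0.82, edgeR adjusted p = 2.2e-09). In the other IPs the same guide took 578648 and 653674 CPM in polyp AGO1 and 11237 and 5580 CPM in planula AGO1, and in IgG 124054 and 502096 CPM in polyps against 47127 and 142321 CPM in planulae. It is thus the leading guide of polyp AGO1, and the part that AGO1 or unbound RNA in the AGO2 IP had in its change was not tested.

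Its star, nve-miR-2023-5p, had 1141 and 1478 CPM in polyp AGO2 against 25.3 and 7.53 CPM in planula AGO2, a log2 change of 6.30 (SE 0.98, edgeR adjusted p = 2.3e-06). Unlike the guide it was scarce in AGO1, with 45.9 and 4.20 CPM in polyps and 27.3 and 33.2 CPM in planulae, below its level in polyp AGO2. In IgG it had 1206 and 806 CPM in polyps and 360 and 408 CPM in planulae.

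Both arms of nve-miR-2025 were higher in polyps. The guide nve-miR-2025-3p had 36048 and 51308 CPM in polyp AGO2 against 961 and 1095 CPM in planula AGO2, with the groups apart and a log2 change of 5.41 (SE 0.72, edgeR adjusted p = 8.7e-08). In AGO1 it was more abundant, with 268446 and 173623 CPM in polyps and 29079 and 21094 CPM in planulae. In IgG it took 4.77% and 11.5% of the miRNA counts in polyps and 0.585% and 0.776% in planulae. The AGO2 shares were 3.6% and 5.13% in polyps and 0.0961% and 0.1095% in planulae. The guide was thus higher in polyps in the control as well, and its stage change did not pass against IgG in the test given below. How much AGO1 or unbound RNA bears on its AGO2 level was not tested. The star nve-miR-2025-5p reached 110 and 176 CPM in polyps, against 0 and 1.88 CPM in planulae, where it rests on 1 count. The ratio of the summed counts was 170 (95% exact counting interval 30.5 to 6723; edgeR adjusted p = 3.1e-05 for the log2 change).

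Another abundant guide, nve-miR-2026-5p, stood at 15430 and 29534 CPM in polyp AGO2 against 1585 and 1577 CPM in planula AGO2, a log2 change of 3.83 (SE 0.69, edgeR adjusted p = 3.1e-05). Its planula replicates were nearly equal and its polyp replicates differed by almost as much as the lower of them. In AGO1 the guide had 25819 and 23166 CPM in polyps and 18000 and 32958 CPM in planulae, so that in AGO1 the stages overlapped. Its stage change did not pass against IgG in the test given below. Together the guides of nve-miR-2023, nve-miR-2025 and nve-miR-2026 made up 10.2% and 14.0% of the polyp AGO2 counts, against 0.303% and 0.295% of the planula AGO2 counts.

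Further down, nve-miR-2050-3p had 1551 and 2112 CPM in polyps against 41.6 and 48.9 CPM in planulae, a log2 change of 5.34 (SE 0.90, edgeR adjusted p = 9.4e-06). The newly annotated n-nve-miR-42-b guide had 52.3 and 55.4 CPM in polyps, against 1.81 and 0 CPM in planulae, and its ratio of summed counts was 59.1 (95% exact counting interval 10.6 to 2339; edgeR adjusted p = 0.0004). In planulae that guide rests on 1 count. These 7 arms, the guides and stars of nve-miR-2023 and nve-miR-2025 with these 2 and nve-miR-2026-5p, were the ones that passed without each AGO2 library in turn.

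The other 7 arms called higher lost the call without at least 2 of the 4 libraries. nve-miR-2024a-3p, a guide that has a near copy in nve-miR-2024g-3p, had 14991 and 18290 CPM in polyps against 3523 and 3542 CPM in planulae (log2 change 2.24, SE 0.70, edgeR adjusted p = 0.012), and passed in 1 of the 4 fits. nve-miR-2037-3p had 314 and 214 CPM in polyps against 47.0 and 45.2 CPM in planulae. For nve-miR-2032a-3p, which matches nve-miR-2032b-3p over 20 bases with the same counts, the values were 331 and 424 CPM against 88.7 and 58.3 CPM. nve-miR-9431 had 309 and 934 CPM in polyps against 228 and 62.1 CPM in planulae, the narrowest gap between groups in this set. All of these had separate groups, with log2 changes from 2.10 to 2.52 and edgeR adjusted p from 0.012 to 0.041.

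The low end of the set is less certain. The n-nve-miR-92 guide had 23.8 and 29.8 CPM in polyps against 7.24 and 0 CPM in planulae (edgeR adjusted p = 0.027). The star nve-miR-2032a-5p had 7.74 and 6.39 CPM in polyps and no count in planulae, where 3 counts would be 5.43 and 5.65 CPM, so that it was at least 1.28-fold higher. The n-nve-miR-19 star, likewise at 0 in both planula libraries, had 5.26 and 13.9 CPM in polyps and was at least 1.73-fold higher. Of the 10 guides called higher, 8 belonged to known miRNAs.

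**Figure D4:**
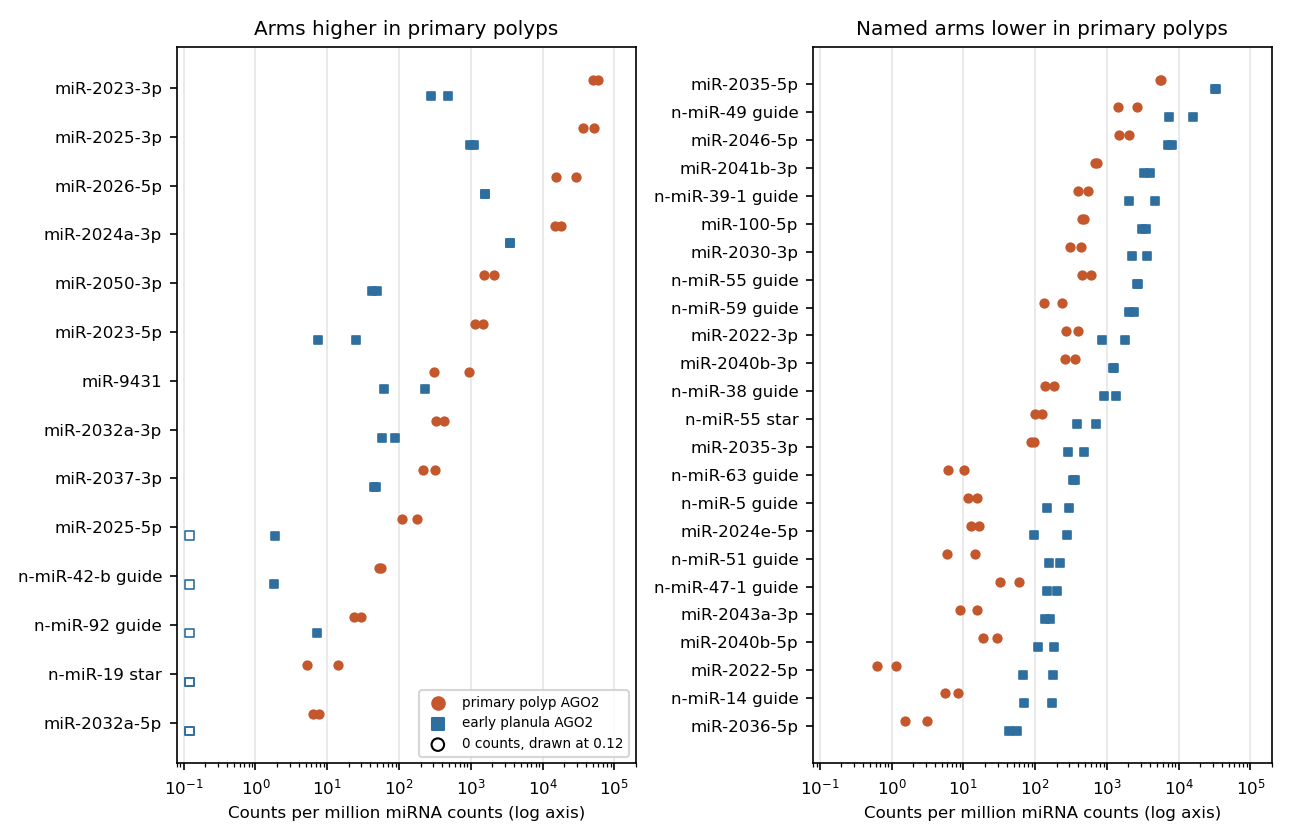
CPM of each AGO2 library, on a log axis, for the 14 arms higher in primary polyps (left) and the named arms lower in primary polyps (right); in each row polyp libraries (circles) are drawn above planula libraries (squares), n- marks newly annotated miRNAs and open symbols mark 0 counts. In every row the 2 groups do not overlap, and the gap is widest for nve-miR-2023-3p on the left and nve-miR-2022-5p on the right.

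Among the guides lower in primary polyps, the most abundant was nve-miR-2035-5p. It stood at 5522 and 5670 CPM in polyp AGO2 against 33577 and 32560 CPM in planula AGO2, a mean 5.91-fold higher in planulae (log2 change -2.56, SE 0.67, edgeR adjusted p = 0.0027). Its replicates were close at both stages. The star nve-miR-2035-3p went the same way, at 87.6 and 96.8 CPM in polyps against 288 and 486 CPM in planulae (edgeR adjusted p = 0.044). Without single AGO2 libraries the guide passed in 2 of the 4 fits and the star in 0. In AGO1 the guide took 0.0523% and 0.0684% of the miRNA counts in polyps against 1.14% and 1.19% in planulae. In IgG it took 0.437% and 0.169% in polyps against 5.62% and 1.78% in planulae. The AGO2 shares were 0.552% and 0.567% against 3.36% and 3.26%. The guide was thus lower in polyps in AGO1 and IgG as well, and their part in its AGO2 change was not tested.

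nve-miR-100-5p belongs to a family that bilaterian animals also have, and it had 477 and 448 CPM in polyp AGO2 against 3514 and 3082 CPM in planula AGO2 (log2 change -2.83, SE 0.67, edgeR adjusted p = 0.001). The guide is a large part of the other IPs, with 9932 and 22969 CPM in polyp AGO1 and 93082 and 73954 CPM in planula AGO1. In IgG it had 4040 and 12719 CPM in polyps against 148125 and 464949 CPM in planulae, above its level in AGO2 at each stage. Its fall in AGO2 thus ran alongside falls of the same direction in AGO1 and IgG, and their part in it was not tested.

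Other abundant guides called lower were nve-miR-2046-5p, at 1480 and 2029 CPM in polyps against 7042 and 8069 CPM in planulae, and nve-miR-2041b-3p, at 726 and 679 CPM against 3327 and 4006 CPM. The set also held 3 newly annotated guides. The n-nve-miR-49 guide had 2647 and 1427 CPM in polyps against 7301 and 15796 CPM in planulae, the n-nve-miR-55 guide 449 and 599 CPM against 2718 and 2633 CPM, and the n-nve-miR-39-1 guide 396 and 545 CPM against 2012 and 4690 CPM. For these 5 guides log2 changes ran from -2.11 to -2.83 with edgeR adjusted p from 0.0047 to 0.035, and they stood 1.07 to 1.80 below the median of all arms. With single AGO2 libraries left out, nve-miR-2046-5p and the n-nve-miR-55 guide passed in 0 of the 4 fits, nve-miR-2041b-3p in 1, and the n-nve-miR-49 and n-nve-miR-39-1 guides in 2. nve-miR-2046-5p and the n-nve-miR-55 and n-nve-miR-39-1 guides were called under 1 of the 5 scalings.

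Larger falls were found at lower levels. The n-nve-miR-59 guide had 133 and 239 CPM in polyps against 2410 and 2017 CPM in planulae, a log2 change of -3.57 (SE 0.80, edgeR adjusted p = 0.00062). The n-nve-miR-63 guide had 6.19 and 10.3 CPM in polyps against 337 and 356 CPM in planulae, a log2 change of -5.36 (SE 0.90, edgeR adjusted p = 9.4e-06). This was the largest change among the guides called lower with at least 50 counts, and with nve-miR-2022-5p it was 1 of 2 arms that were lower under each scaling and without each AGO2 library. In AGO1 the same guide had 5.54 and 10.2 CPM in polyps against 547 and 602 CPM in planulae, close to its AGO2 levels at both stages.

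The next 3 guides had log2 changes from -4.04 to -4.16 with edgeR adjusted p from 0.0004 to 0.00056. These were the n-nve-miR-5 guide, at 15.5 and 11.5 CPM in polyps against 147 and 299 CPM in planulae, the n-nve-miR-14 guide, at 5.57 and 8.43 CPM against 70.6 and 169 CPM, and the n-nve-miR-51 guide, at 5.88 and 14.6 CPM against 219 and 154 CPM. nve-miR-9457, which shares the seed of n-nve-miR-51 and was looked at for that reason, had 21.1 and 18.3 CPM in polyps against 195 and 243 CPM in planulae (log2 change -3.47, SE 0.83, edgeR adjusted p = 0.0011). So both guides with this seed were lower, beside 39 of all 134 tested guides, and the n-nve-miR-51 guide did not pass by DESeq2's Wald test. Of the other tested guides that share a seed, n-nve-miR-44-1 and n-nve-miR-44-2 did not pass, nor did nve-miR-2024e-3p and nve-miR-2024f-3p. n-nve-miR-42-a, which shares only part of its name with the polyp-high n-nve-miR-42-b and was chosen after its values were seen, went the other way, at 32.5 and 31.3 CPM in polyps against 326 and 356 CPM in planulae (edgeR adjusted p = 0.0027).

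The third arm lower under all 5 scalings, the n-nve-miR-8 guide, had no count in polyps and 18.1 and 0 CPM in planulae, so its groups overlap and the call rests on 10 counts of 1 library. In planula IgG it had 2338 and 7538 CPM, far above any AGO2 library. Of the 54 arms called lower, 14 passed without each AGO2 library in turn, and 13 passed in none of these 4 fits.

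The miR-2024 family, which holds the leading guide, differed in its arms. Its 3p arms were above both planula values in both polyp libraries. nve-miR-2024f-3p, with the seed of nve-miR-2024e-3p, had 6999 and 7712 CPM in polyps against 3910 and 3434 CPM in planulae, and nve-miR-2024g-3p had 2651 and 3073 CPM against 1138 and 1084 CPM. Neither passed, with log2 changes of 1.0 (SE 0.70) and 1.37 (SE 0.75), and nve-miR-2024a-3p was the member called higher. Reads of nve-miR-2024a-3p and nve-miR-2024g-3p may be shared, since the sequences differ at 1 base and the counting allowed mismatches.

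On the other arm, the star nve-miR-2024e-5p had 12.7 and 16.5 CPM in polyps against 279 and 97.9 CPM in planulae, a log2 change of -3.68 (SE 0.85, edgeR adjusted p = 0.00091). nve-miR-2024f-5p had 36.2 and 34.4 CPM in polyps against 107 and 54.6 CPM in planulae and did not pass (log2 change -1.19, SE 0.73). nve-miR-2024a-5p and nve-miR-2024g-5p had the same counts in all 4 libraries, 212 and 234 CPM in polyps against 291 and 120 CPM in planulae, and their sequences match over 21 bases. The study's list of AGO preference names nve-miR-2024g-5p as the guide although it has fewer counts than its partner.

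Of the miR-2040 pair, which differ at 1 base of the guide, nve-miR-2040b-3p was lower in polyps and nve-miR-2040a-3p did not pass. nve-miR-2040b-3p had 264 and 359 CPM in polyps against 1270 and 1223 CPM in planulae (log2 change -2.0, SE 0.68, edgeR adjusted p = 0.021), and its star nve-miR-2040b-5p 18.9 and 29.9 CPM against 110 and 181 CPM (edgeR adjusted p = 0.0098). nve-miR-2040a-3p had 314 and 515 CPM in polyps against 440 and 312 CPM in planulae, with overlapping groups, and nve-miR-2040a-5p 46.5 and 109 CPM against 59.7 and 79.0 CPM. Without single AGO2 libraries nve-miR-2040b-3p passed in 0 of the 4 fits and nve-miR-2040b-5p in 1. The difference between the 2 miRNAs was not tested, and their guide counts may be shared.

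Whether the balance of guide and star in AGO2 differed between stages was asked with the ratio of the arms within each library, which no scaling of the libraries can move. Of 76 miRNAs with at least 5 star counts over the 4 AGO2 libraries and guide counts at both stages, the star share was lower in polyps in 5 (6.58%) and higher in 2 (2.63%), 9.21% in all, by edgeR's quasi-likelihood test of arm by group. In 20 miRNAs (26.3%) both polyp shares were below both planula shares, and in 28 (36.8%) both were above. Over the whole library, stars took 1.13% and 1.17% of the counts in polyps against 1.41% and 1.35% in planulae.

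nve-miR-2043a changed its dominant arm. Its star, nve-miR-2043a-3p, made up 17% and 23.5% of both arms in polyp AGO2 (exact 95% intervals 11.7 to 23.4% and 19.9 to 27.4%), against 73.8% and 83.3% in planula AGO2 (64.2 to 82.0% and 74.7 to 90.0%). The star stood at 8.98 and 15.6 CPM in polyps against 138 and 160 CPM in planulae (edgeR adjusted p = 0.0025), while the guide nve-miR-2043a-5p had 44.0 and 50.7 CPM in polyps against 48.9 and 32.0 CPM in planulae and did not pass. The log2 difference of the star-to-guide ratio was -3.86 (SE 0.85, edgeR adjusted p = 0.000125). Without the first polyp replicate it had an adjusted p of 0.071.

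On the log2 scale of the star-to-guide ratio, nve-miR-2022 had the largest fall among the 7. nve-miR-2022-5p took 0.156% and 0.424% of both arms in polyps against 9.05% and 7.41% in planulae, a log2 difference of -4.79 (SE 0.95, edgeR adjusted p = 4.1e-05). In levels, the star stood at 0.619 and 1.15 CPM in polyps, from 2 and 9 counts, against 176 and 67.7 CPM in planulae (log2 change -6.90, SE 1.06, edgeR adjusted p = 2.3e-06). The guide nve-miR-2022-3p fell less, at 395 and 270 CPM in polyps against 1764 and 847 CPM in planulae (log2 change -1.97, SE 0.67, edgeR adjusted p = 0.021). In AGO1, where the guide is abundant, the star had 7.70 and 16.5 CPM in polyps against 535 and 712 CPM in planulae, and in IgG 15.1 and 48.4 CPM against 2338 and 743 CPM. Both were above the AGO2 level at each stage, and their part in the AGO2 values was not tested. In the polyp IgG libraries 1 count weighed 15.1 and 16.1 CPM, so the polyp IgG values of this star rest on very few counts.

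For nve-miR-2036 the star was lower in polyps while the guide values overlapped. nve-miR-2036-3p had 1247 and 1075 CPM in polyps against 1057 and 1214 CPM in planulae, with overlapping groups. nve-miR-2036-5p had 3.10 and 1.53 CPM in polyps against 43.4 and 56.5 CPM in planulae, and its share was 0.248% and 0.142% against 3.95% and 4.44% (log2 difference -4.50, SE 0.94, edgeR adjusted p = 6.8e-05). nve-miR-2024e had the lowest share of the 7 in polyps, with 0.00262% and 0.00337% in polyps against 0.0629% and 0.0338% in planulae (log2 difference -3.95, SE 0.84, edgeR adjusted p = 6.8e-05). In AGO1 nve-miR-2036-5p had 25.9 and 20.2 CPM in polyps against 1531 and 1343 CPM in planulae, and nve-miR-2024e-5p 76.4 and 114 CPM against 9029 and 5672 CPM, so both stars were also more abundant in planula AGO1. The shares of nve-miR-2022, nve-miR-2036 and nve-miR-2024e passed without each AGO2 library in turn.

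The remaining star shares rest on few counts or single libraries. That of n-nve-miR-19 was 13.2% and 11.8% in polyps against 0% in both planula libraries, whose exact intervals reach 5.44% and 5.96% (edgeR adjusted p = 0.011; 0.22 without the first planula replicate and 0.15 without the second). For n-nve-miR-63 the share was 4.76% and 8.99% against 0% and 0.526% (edgeR adjusted p = 0.029), from 1 and 8 star counts in polyps against 0 and 1 in planulae. The share of n-nve-miR-32 was 2.62% and 3.83% in polyps against 18.4% and 14.9% in planulae (edgeR adjusted p = 0.049). Without any one AGO2 library, n-nve-miR-63 had an adjusted p of 0.071 to 0.52 and n-nve-miR-32 of 0.16 to 0.44, so neither passed.

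**Figure D5:**
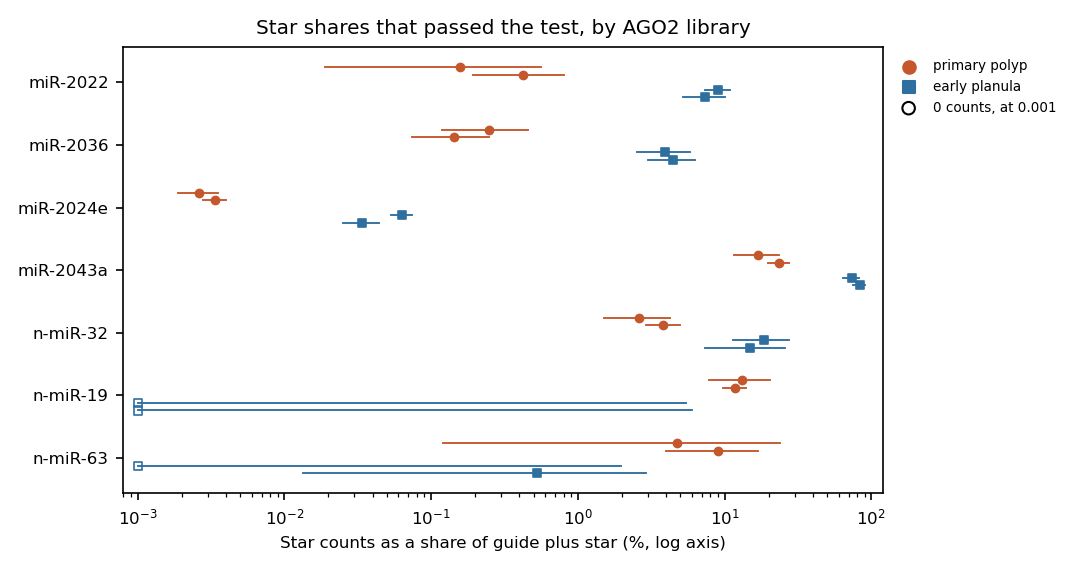
Star counts as a share of guide plus star (%, log axis) in each AGO2 library for the 7 miRNAs past an adjusted p of 0.05, polyp libraries (circles) above planula libraries (squares), with exact 95% binomial intervals; n- marks newly annotated miRNAs and open symbols mark 0. The groups do not overlap in any row, and nve-miR-2043a lies below 50% in polyps and above it in planulae.

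By their level, 2 more stars were named. nve-miR-2030-3p had 302 and 436 CPM in polyps against 3651 and 2230 CPM in planulae (log2 change -2.99, SE 0.71, edgeR adjusted p = 0.001), and in planula IgG it had 54771 and 13107 CPM. The n-nve-miR-55 star had 99.7 and 126 CPM in polyps against 382 and 708 CPM in planulae (edgeR adjusted p = 0.04), and it passed in 0 of the 4 fits that leave out an AGO2 library.

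The same stages in AGO1 show what is shared between the proteins. In AGO1, 3 arms were higher in polyps and 129 lower, with a median log2 change of -3.14, against 14 higher and 54 lower and a median of -1.04 in AGO2. A test of the difference, the interaction of stage and protein in one edgeR fit, passed in 47 of 196 arms (24.0%), in each of which the change was more positive in AGO2. None passed in the other direction, where 1 arm had an unadjusted p under 0.05 and DESeq2 called 0. The median of the difference was 2.04 over all arms, and 3 arms passed with TMM factors and 0 per genome-mapped read (14 at an unadjusted p under 0.05), so the count follows the scale. It was 31 without the second polyp AGO2 replicate, 23 without the first and 31 without the second planula AGO2 replicate, 27 without the second polyp AGO1 replicate and 31 without the first planula AGO1 replicate.

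Named by the smallest p, 6 arms differed most between the proteins. nve-miR-2023-5p was higher in polyp AGO2 while its AGO1 levels overlapped between stages, and the difference was 6.59 on the log2 scale (SE 1.25, edgeR adjusted p = 0.00031). For nve-miR-2024a-3p AGO1 had 47.7 and 39.7 CPM in polyps against 307 and 255 CPM in planulae, lower in polyps where AGO2 was higher (difference 4.92, SE 1.01, edgeR adjusted p = 0.00047). nve-miR-2032a-3p did likewise, with 4.93 and 5.98 CPM against 60.7 and 48 CPM in AGO1 (difference 5.65, SE 1.16, edgeR adjusted p = 0.00047). These falls are to be read against a median log2 change of -3.14 over all arms in AGO1, where 129 arms were lower. The opposite directions in AGO1 and AGO2 thus hold only for shares of each protein's miRNA cargo.

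The other 3 fell in AGO1 by more than in AGO2. The n-nve-miR-47-1 guide had 14.5 and 22.8 CPM in polyp AGO1 against 6353 and 7248 CPM in planula AGO1, beside 32.8 and 59.4 CPM in polyp AGO2 against 203 and 145 CPM in planula AGO2 (difference 6.59, SE 1.13, edgeR adjusted p = 8.6e-05). Its call in AGO2 was kept in 0 of the 4 fits that leave out an AGO2 library and under 1 of the 5 scalings. The n-nve-miR-38 guide had 3.08 and 2.91 CPM against 1060 and 749 CPM in AGO1, beside 137 and 184 CPM against 914 and 1355 CPM in AGO2 (difference 5.39, SE 1.08, edgeR adjusted p = 0.00047). nve-miR-2028-5p had 826 and 348 CPM in polyp AGO1 against 25644 and 12809 CPM in planula AGO1 and did not pass in AGO2 (difference 4.28, SE 0.90, edgeR adjusted p = 0.00055).

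Against the IgG control, the stage change differed in 7 arms (3.57%), each with a more positive change in AGO2. None passed in the other direction, where 6 arms had an unadjusted p under 0.05 and DESeq2 called 0. nve-miR-2023-3p (difference 5.45, SE 0.94, edgeR adjusted p = 9.2e-05), nve-miR-2023-5p (4.93, SE 1.25, adjusted p = 0.012) and nve-miR-2030-3p (3.39, SE 0.97, adjusted p = 0.029) were among them. The guides nve-miR-2025-3p and nve-miR-2026-5p did not pass here, with edgeR adjusted p of 0.26 and 0.12. At these depths 1 count in planula IgG weighed 89.9 and 37.1 CPM, which limits every such difference, and 4 arms passed without the first planula AGO2 replicate, 3 without the second and 4 without the second planula IgG replicate.

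The guides can also be grouped by status, length, first base and locus, and these groups were counted without a test between them. The study annotated its new miRNAs from these same IP libraries, with read counts and enrichment over IgG among its criteria. Known against newly annotated is therefore no independent grouping. The counts are to be set against all 196 tested arms, of which 7.14% were higher and 27.6% lower, and against all 134 guides, of which 10 were higher and 39 lower. Of 50 known guides tested, 8 were higher, 9 lower and 33 did not pass, with a median log2 change of 0.13. Of 84 newly annotated guides, 2 were higher, 30 lower and 52 did not pass, with a median of -1.36, beside -1.04 over all 196 arms. Newly annotated guides held 1.05% and 1.02% of the polyp AGO2 counts against 2.77% and 4.31% of the planula AGO2 counts.

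By length, of 33 guides of at least 23 nt, 1 was higher and 15 lower, with a median of -2.09. The 48 guides of 22 nt had 4 higher and 14 lower (median -1.01), the 34 of 21 nt 3 and 6 (median -0.53), and the 19 of at most 20 nt 2 and 4 (median -0.75). By first base, 7 of 82 guides that begin with U were higher and 23 lower (median -0.97), and 3 of 52 others were higher and 16 lower (median -1.22). The shares by first base lie near those of all arms, 7.14% higher and 27.6% lower, and give no result about these groups.

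By the place of the precursor in the genome, as the study annotates it, 7 of 62 intergenic guides were higher and 19 lower (median -0.69), 2 of 40 intronic guides were higher and 11 lower (median -1.16), 1 of 17 in repetitive elements was higher and 5 lower (median -1.12), and 0 of 13 exonic guides were higher and 3 lower (median -0.94). The study drew its lists of AGO1 and AGO2 miRNAs from these same libraries, so they are no independent grouping. The share called over all arms was again 7.14% higher and 27.6% lower. Of 57 guides on its AGO2 list alone, 4 were higher and 14 lower (median -0.98), close to those shares, and together they held 87.9% and 83.9% of the polyp AGO2 counts against 96.1% and 96.8% of the planula AGO2 counts. Of 37 on its AGO1 list alone, 4 were higher and 14 lower (median -1.37), and they held 10.8% and 14.6% in polyps against 2.27% and 1.56% in planulae. Most of these counts in polyps were of nve-miR-2023-3p, nve-miR-2025-3p and nve-miR-2026-5p, which are all on that list. Among the 11 guides without preference 1 was higher and 3 lower (median 0.23), and of 27 on none of the lists 1 was higher and 8 lower (median -0.82). In the comparison of list medians, arms with no count in a group were kept at their fitted change; set to the bound that 3 counts a library allow, the medians were -1.13 for all arms and -1.64 for the AGO1 list, and -1.36 for newly annotated guides.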

How the data were processed

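Small RNA libraries from IPs with antibodies against NveAGO2 and NveAGO1 and with rabbit IgG were compared, 2 per group and 18 in all. The deposited values are raw counts per miRNA arm: the authors counted reads with mirDeep2's quantifier at default settings, and the submitters' processing notes also name cutadapt with no version. The quantifier lets near-identical arms share reads. From 255 arms, 3 repeats were left out; arms that reached 10 counts in 2 or more libraries were tested with edgeR 4.0.16 (quasi-likelihood, R 4.3.3) on all 18 libraries in 9 groups, library size being the summed counts, and rechecked with DESeq2 1.42.0. Star shares used guide and star counts with library as a block. Binomial intervals used scipy 1.17.1 in Python 3.11.15; figures used matplotlib 3.10.9. Code was tested on simulated data, where 11 of 29 arms with a true log2 change of 2 in size passed. With a true change of 3 in size 18 of 31 passed, and 0 unchanged arms did. An arm that did not pass may therefore still have changed. Every simulated arm had the same spread and the stages had no common shift. The simulation thus does not show how often calls in the real data are false. Alternatives covered scaling, filters, tool, arms, libraries and replicate numbers.

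The arms named were the 6 most abundant guides of each stage, the 5 most abundant guides that did not pass, those called with separate groups (in each direction 8 guides by level, 5 by fold with at least 50 counts, and 4 stars by level), up to 5 star shares and 6 AGO1 differences in each direction by p, and every arm of the miR-2024 and miR-2040 families; other arms named were chosen after their values were seen. Members and lists were chosen with earlier results of these data known. The labels do not say that a replicate number marks shared animals, so the main fits have no block. The knockdown libraries and adult male comparisons were not analysed here.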

Additional observations from a re-analysis of the deposited data

Results flagged for a closer look

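The stage change, primary polyp over early planula, differed between AGO2 and AGO1 in 47 of 196 arms by the test of the difference itself. For the named arms, the AGO2 change less the AGO1 change on the log2 scale was 6.59 for the n-nve-miR-47-1 guide, 6.59 for nve-miR-2023-5p, 5.65 for nve-miR-2032a-3p, 5.39 for the n-nve-miR-38 guide, 4.92 for nve-miR-2024a-3p and 4.28 for nve-miR-2028-5p. The median difference over all arms was 2.04 and the count was 3 with TMM factors, so these values hold for shares of the miRNA cargo, and the cause was not tested.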

How the results depend on the processing

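The stage comparison gave 32 higher and 21 lower arms with TMM factors, 23 and 31 with DESeq2 size factors, 74 and 3 per genome-mapped read, and 34 lower when nve-miR-2024e-3p was left out of the sum. With only the 4 AGO2 libraries 104 arms passed, 25 of them higher, and with guides only 45 passed, 35 of them lower. Leaving out 1 AGO2 library at a time gave 28 to 41 calls, 7 to 11 higher and 17 to 33 lower. The AGO1 difference passed in 3 arms with TMM (2 higher, 1 lower) and 0 per genome-mapped read (14 at an unadjusted p under 0.05 in edgeR), and in 23 to 41 without 1 library, 23 to 41 higher and 0 to 1 lower. Against IgG, 1 arm passed per genome-mapped read, all 1 higher, and 3 to 7 without 1 library, 3 to 7 higher and 0 to 1 lower. Star shares gave 1 higher with at least 20 star counts, 15 calls (5 higher, 10 lower) with only the 4 AGO2 libraries, and 4 to 5 without 1 library, 0 to 1 higher (where 0, edgeR had 4 and 5 at an unadjusted p under 0.05) and 3 to 4 lower.

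Per genome-mapped read the log2 change turned positive for the guides n-nve-miR-19 (2.16), n-nve-miR-47-1 (1.08), n-nve-miR-49 (0.27) and n-nve-miR-55 (0.57), the stars n-nve-miR-32 (0.96) and n-nve-miR-55 (0.50), and nve-miR-100-5p (0.13), nve-miR-2022-3p (1.16), nve-miR-2024f-5p (1.91), nve-miR-2029-3p (2.29), nve-miR-2028-5p (2.05), nve-miR-2030-3p (0.048), nve-miR-2035-3p (0.73), nve-miR-2035-5p (0.37), nve-miR-2040b-3p (0.92), nve-miR-2040b-5p (0.22), nve-miR-2041b-3p (0.50), nve-miR-2046-5p (0.77) and nve-miR-9414-5p (2.15). With TMM it did for the n-nve-miR-19 guide (0.46), nve-miR-2029-3p (0.68), nve-miR-9414-5p (0.43) and nve-miR-2028-5p (0.44), and with DESeq2 size factors nve-miR-9414-5p (0.010) and nve-miR-2029-3p (0.25) did so. Without 1 library the change ran from -0.38 to 0.89 for nve-miR-2024a-5p and nve-miR-2024g-5p alike, from -0.0782 to 0.14 for nve-miR-2036-3p, from -0.26 to 0.45 for nve-miR-2040a-3p, from -0.58 to 0.65 for nve-miR-2040a-5p and from -0.0443 to 0.57 for nve-miR-2043a-5p, none of which had passed.

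Same-numbered replicates of the stages deviated with a correlation of -0.145 and share only a number. Within a stage, same-numbered AGO1 and AGO2 libraries deviated with a correlation of 0.416 in polyps, -0.189 in planulae and 0.639 in adult males. With the replicate number as a block 68 arms passed (13 higher, 55 lower), 48 for the AGO1 difference (45 of them among the 47) and 7 for IgG. That block is common to all stages, so it cannot take up a pairing of AGO1 and AGO2 libraries within a stage. The test of the AGO1 difference takes these libraries as independent. With crossed pairing, chosen after seeing the data, 67 passed (14 higher, 53 lower). Depth limits the low arms: 3 counts are 5.43 and 5.65 CPM in planula AGO2. With 2 libraries a group, p-values rest on a spread shared across 9 groups.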
